A study of Mus musculus with 8 samples.

Results

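The genes described are the 6 that encode the platelet-derived growth factor (PDGF) ligands and receptors, namely the ligands Pdgfa, Pdgfb, Pdgfc and Pdgfd and the receptors Pdgfra and Pdgfrb. They were taken as the probe sets whose symbol in the platform table is one of these names, which gave 6 probe sets, 1 for each gene, among 22184 genes with a probe set of their own. All 6 were bright enough to be tested, among 16638 genes in all. RNA came from the aorta of newborn (postnatal day 0) mice on an albino C57BL/6J background and was measured on Affymetrix arrays. The 4 groups were the ascending aorta of lysyl oxidase (LOX) knockout pups (KO), the ascending aorta of wild-type pups (WT), and the descending aorta of KO and of WT pups. Per the labels, the ascending segment ran from the aortic valve to the ductus arteriosus and the descending segment from the vena cava to the diaphragm. Each group had 2 arrays, and each array held the RNA of 8 pooled pups of like genotype, so every value below has n = 2 pools per group. The number of arrays limits the precision, and p-values measure the spread between pools rather than between pups. The sources used here do not say how the KO allele was made, or which pools came from the same pups or litters.

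PDGFs are secreted dimers that bind receptor tyrosine kinases on mesenchymal cells. PDGF-A and PDGF-B are released in active form, whereas PDGF-C and PDGF-D carry an extra CUB domain that proteases must remove. PDGFRα, the product of Pdgfra, binds PDGF-A, PDGF-B and PDGF-C, and PDGFRβ, the product of Pdgfrb, binds mainly PDGF-B and PDGF-D. In vessels, PDGF-B from the endothelium recruits PDGFRβ-bearing mural cells, and PDGFRα is a common mark of fibroblasts and their precursors.

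Lox, the targeted gene, read 8.74 and 8.87 on the log2 scale in KO ascending pools, against 11.47 and 11.60 in WT ascending pools, and 8.51 and 8.56 in KO descending pools, against 11.24 and 11.41 in WT descending pools. Every KO array was below every WT array, as the labels have it. The smooth muscle genes Acta2 and Myh11 read 12.42 to 12.63 and 10.55 to 10.92 over the 8 arrays, so defining markers of aortic muscle were present. The 2 arrays of a group correlated at 0.991 to 0.994 across genes, which are not independent replicates. Marker lists of other tissues also differed between the groups: averaged over the segments, 8 of 10 tested liver genes were higher in KO, 2 of 9 lung epithelial genes were lower and 5 of 8 fat genes were lower. The liver and lung calls lay in the descending aorta (7 of 10 and 2 of 9), with 0 of 10 and 0 of 9 in the ascending aorta. In the averaged comparison 6 of 13 macrophage, 2 of 6 red cell and 3 of 11 cell cycle genes were higher, and 1 of 7 cartilage genes was lower. Over all genes, to be set beside these and later marker counts, 6.21% were higher and 5.22% lower on average. The shares were 1.54% and 1.19% in the ascending aorta, and 1.46% and 0.823% in the descending aorta. With 7 genes, the cartilage count cannot be told from that share. Lists of thymocytes, heart muscle, mesothelium and Schwann cells held 0 genes that passed. Where such lists moved with a PDGF gene, their values are given beside it.

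Pdgfra and Pdgfc were the members that fell without lysyl oxidase. Averaged over the segments, Pdgfc was lower in KO by 0.61 on the log2 scale (-0.61, SE 0.09, limma adjusted p = 0.0054) and Pdgfra by 0.57 (-0.57, SE 0.09, limma adjusted p = 0.0072), differences of 1.53-fold and 1.49-fold. Pdgfa, Pdgfb, Pdgfd and Pdgfrb did not pass. Of the 16638 genes tested, 11.4% passed this averaged comparison, and 5.22% passed as lower, against 2 of 6 members, both lower. On the log2 scale the median difference over all genes was 0.0036. In bulk tissue, fewer cells of a type and less RNA per cell cannot be told apart.

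The 250 bases before the RefSeq start (build GRCm38.p6) of Pdgfra and Pdgfc are shown because both were called lower in KO averaged over the segments. The Pdgfra window is chr5:75152001-75152250 and the Pdgfc window is chr3:81036166-81036415, both on the plus strand. Capitals mark a match to any of 5 motifs, searched on both strands and with no overlap between their matches here. They were the E-box, spelled CANNTG, the CCAAT box, the GC box, spelled GGGCGG, the TATA box, spelled TATAAA, and the AP-1 motif, spelled TGANTCA.
Pdgfra: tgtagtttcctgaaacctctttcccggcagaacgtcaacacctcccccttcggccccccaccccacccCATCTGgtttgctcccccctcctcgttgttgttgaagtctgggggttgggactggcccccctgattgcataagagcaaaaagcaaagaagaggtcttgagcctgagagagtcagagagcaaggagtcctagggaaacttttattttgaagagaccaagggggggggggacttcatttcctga
Pdgfc: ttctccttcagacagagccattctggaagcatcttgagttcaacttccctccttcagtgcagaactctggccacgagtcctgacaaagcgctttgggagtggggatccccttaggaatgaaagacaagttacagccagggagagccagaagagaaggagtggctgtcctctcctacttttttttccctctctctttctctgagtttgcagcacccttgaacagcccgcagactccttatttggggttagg
Among these motifs the Pdgfra window held 1 E-box and the Pdgfc window held 0 matches of any kind. Over 32851 RefSeq windows of the same length, 66.2% held an E-box, 33.8% a CCAAT box, 32.7% a GC box, 12.4% a TATA box and 6.75% an AP-1 motif. RefSeq windows matched 4 of the 6 members. The Pdgfd window held 1 TATA box, and the 2 Pdgfa windows held 1 and 2 GC boxes. Guanine and cytosine made up 54.4% of the Pdgfra window and 50.8% of the Pdgfc window, against a median of 52.4% over all windows. The Pdgfa windows, at 66.4% and 72.4%, were richer than either. A match is a description of the letters and not of binding.

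**Figure D1:**
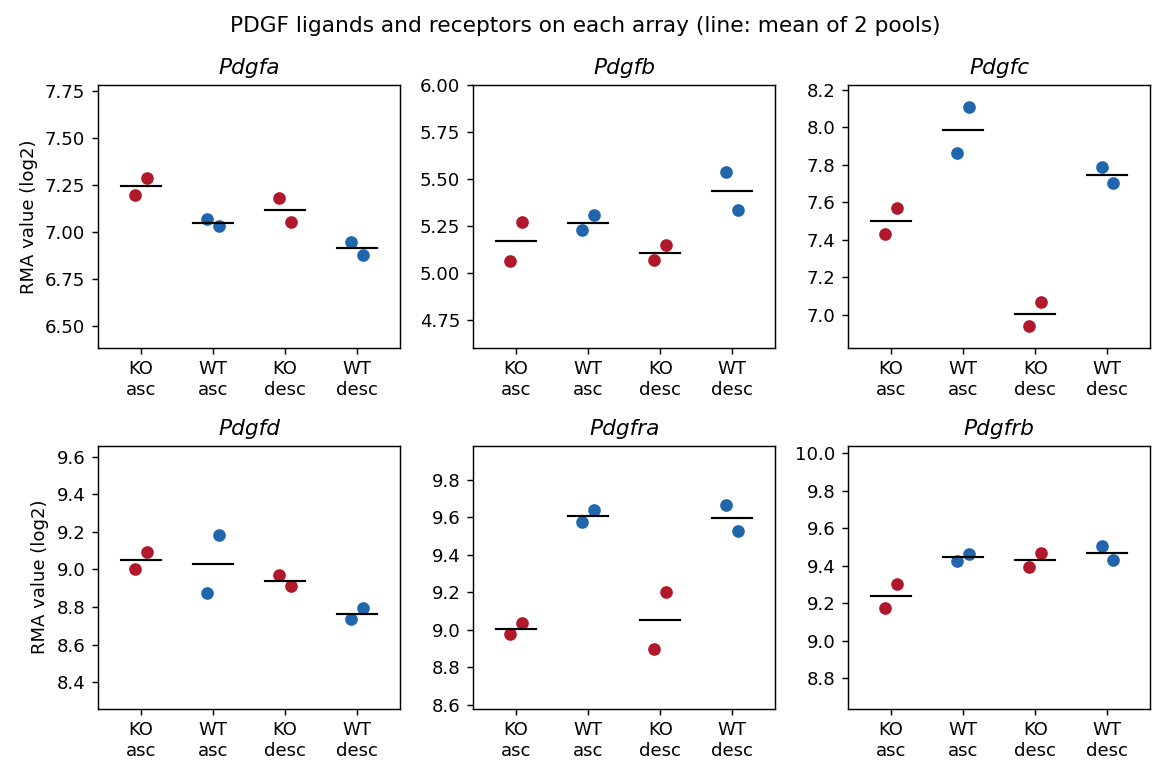
RMA values (log2) of the 6 PDGF genes on each of the 8 arrays, 1 panel per gene, with every vertical axis spanning the same log2 range. Points are pools of 8 pups and lines are the means of the 2 pools of a group (KO red, WT blue; asc, ascending; desc, descending). The 4 KO arrays lie below the 4 WT arrays for Pdgfc and Pdgfra, while for the other 4 genes the KO and WT points overlap.

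Among the receptors, Pdgfra (probe set 17438246) read 8.98 and 9.03 in KO ascending pools, against 9.57 and 9.64 in WT ascending pools. In the descending aorta it read 8.90 and 9.20 in KO pools, against 9.66 and 9.53 in WT pools. All 4 KO arrays were below all 4 WT arrays, and the lower KO descending pool stood furthest from WT. The difference was -0.60 in the ascending aorta (SE 0.12, limma adjusted p = 0.0466, beside 2.73% of all genes called and 1.19% called lower) and -0.54 in the descending aorta (SE 0.12, limma adjusted p = 0.0642). Only the ascending value passed, and the difference between the segments, -0.06 with a 95% interval of -0.46 to 0.35, did not pass (limma adjusted p = 0.988). From low to high the groups ran KO ascending, KO descending, WT descending and WT ascending, with neighbours of the same genotype overlapping.

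The ascending call for Pdgfra was lost under 11 of 17 alternatives, with differences between -0.63 and -0.57. The limma adjusted p was 0.187 without KO ascending replicate 1, 0.122 without KO ascending replicate 2, 0.122 without WT ascending replicate 1 and 0.183 without WT ascending replicate 2. It was 0.0737 without WT descending replicate 1 or 2, which enter only through the shared spread. The averaged fall passed under all 16 alternatives, between -0.65 and -0.50, with adjusted p up to 0.034.

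Fat markers were lower beside Pdgfra and a few fibroblast markers changed, and their part in its fall was not tested. Of 14 tested fibroblast and adventitia markers, 1 was higher and 2 were lower in KO averaged over the segments, with a median of -0.06. Dpt, which encodes the matrix protein dermatopontin, was lower by 0.60 (-0.60, limma adjusted p = 0.00479), as was Gsn, the actin-severing protein gelsolin (-0.31, limma adjusted p = 0.0261). Pi16, named after its value was seen, was higher by 0.31 (limma adjusted p = 0.0377). The summed signal of the list was 14.16 to 14.25 (log2) in KO ascending pools, against 14.35 to 14.40 in WT ascending pools, and 14.17 to 14.25 in KO descending pools, against 14.29 to 14.33 in WT descending pools. Of 8 tested fat markers, 5 were lower and 0 higher, with a median of -0.66, among them Adipoq, the adipokine adiponectin (-1.08, limma adjusted p = 0.00494). The summed fat signal was 11.51 to 11.80 in KO ascending pools, against 12.15 to 12.38 in WT ascending pools, and 12.10 to 12.25 in KO descending pools, against 12.65 to 12.74 in WT descending pools. All 14 matched fibroblast markers and 8 of 9 matched fat markers were above the filter on dim genes.

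Pdgfrb (probe set 17351027), the receptor of mural cells, showed smaller differences that did not pass. It read 9.17 and 9.30 in KO ascending pools, against 9.43 and 9.46 in WT ascending pools, and 9.39 and 9.47 in KO descending pools, against 9.50 and 9.43 in WT descending pools. The KO ascending arrays were the lowest of the 8, and in the descending aorta the genotypes overlapped. The difference was -0.21 in the ascending aorta (95% interval -0.44 to 0.03, limma adjusted p = 0.318) and -0.04 in the descending aorta (95% interval -0.27 to 0.20, limma adjusted p = 0.891). Averaged over the segments it was -0.12 (95% interval -0.29 to 0.04, limma adjusted p = 0.321).

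The mural cell and pericyte list went both ways beside Pdgfrb, with 2 of 12 tested markers higher and 2 lower averaged over the segments. Cspg4, the proteoglycan NG2 of pericytes, was higher by 0.54 (limma adjusted p = 0.0052), and Ndufa4l2, a mitochondrial protein gene abundant in pericytes, by 0.97 (limma adjusted p = 0.00361). The 2 lower markers, named after their values were seen, were Kcnj8, a potassium channel gene (-0.57, limma adjusted p = 0.0178), and Rgs4, a regulator of G protein signalling (-0.36, limma adjusted p = 0.0301). The summed signal of the list was 13.17 to 13.18 in KO ascending pools, against 13.04 to 13.12 in WT ascending pools, and 13.15 to 13.20 in KO descending pools, against 12.98 to 13.02 in WT descending pools. Of 14 smooth muscle markers none passed (0 higher, 0 lower, median -0.05).

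**Figure D2:**
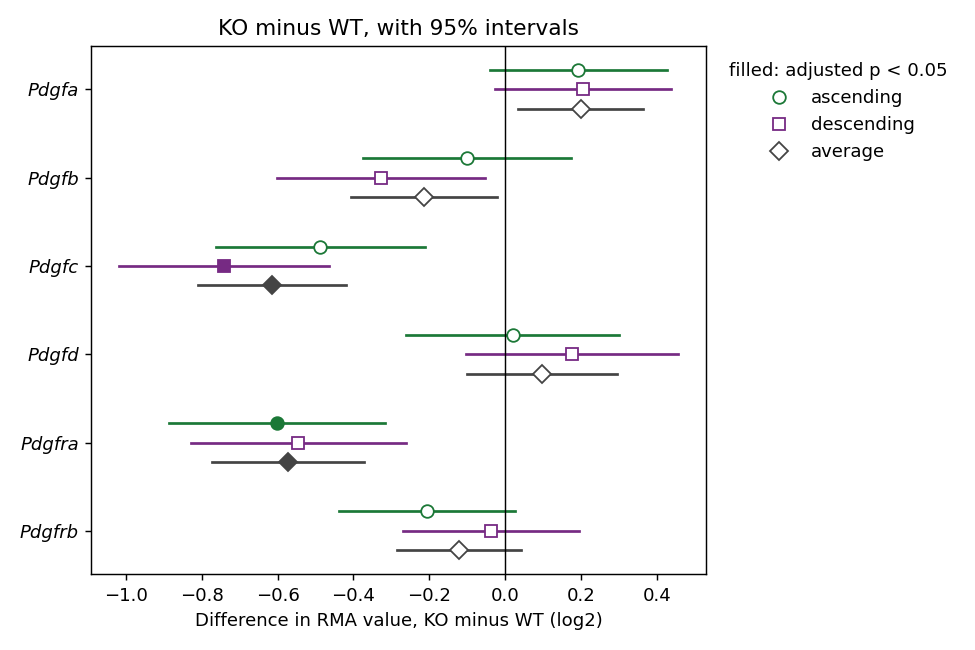
Difference between KO and WT in RMA value (log2) for each PDGF gene in the ascending aorta (circles), the descending aorta (squares) and their average (diamonds), with 95% intervals from limma. Filled symbols passed at an adjusted p under 0.05: Pdgfc in the descending aorta (-0.74) and on average (-0.61), and Pdgfra in the ascending aorta (-0.60) and on average (-0.57).

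Among the ligands, Pdgfc (probe set 17398416), which signals mainly through PDGFRα, had the widest range of the 6 genes, 1.17 on the log2 scale over the 8 arrays. It read 7.43 and 7.57 in KO ascending pools, against 7.86 and 8.11 in WT ascending pools. In the descending aorta it read 6.94 and 7.07 in KO pools, against 7.79 and 7.70 in WT pools. All KO arrays were below all WT arrays. From low to high the groups ran KO descending, KO ascending, WT descending and WT ascending, with no overlap between neighbours. The difference was -0.74 in the descending aorta (SE 0.12, limma adjusted p = 0.029, beside 2.28% of all genes called and 0.823% called lower) and -0.49 in the ascending aorta (SE 0.12, limma adjusted p = 0.073). Their difference of 0.25 (95% interval -0.14 to 0.64) did not pass (limma adjusted p = 0.927).

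The descending call for Pdgfc was lost without any array of that segment. The limma adjusted p was 0.142 without KO descending replicate 1, 0.081 without KO descending replicate 2, 0.175 without WT descending replicate 1 and 0.108 without WT descending replicate 2, with differences of -0.80 to -0.68. The averaged fall passed under all 16 alternatives, between -0.68 and -0.55, with adjusted p up to 0.0277.

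Markers of neighbouring tissues differed in the comparison where Pdgfc was called, and their part in its fall was not tested. In the descending aorta 7 of 10 liver markers were higher in KO (median 2.14) and 2 of 9 lung epithelial markers were lower (median -0.78). The summed liver signal was 10.77 to 12.11 in KO descending pools, against 9.10 to 9.50 in WT descending pools. The summed lung epithelial signal was 8.17 to 8.25 in KO descending pools, against 9.77 to 10.73 in WT descending pools. The summed fat and fibroblast signals given beside Pdgfra were also lower in KO descending pools.

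Pdgfa (probe set 17454345), a ligand of PDGFRα, had higher values in KO but did not pass. It read 7.20 and 7.29 in KO ascending pools, against 7.07 and 7.03 in WT ascending pools, and 7.18 and 7.05 in KO descending pools, against 6.95 and 6.88 in WT descending pools. Within each segment the KO arrays were above the WT arrays. Over all genes, 25.2% had arrays that did not overlap, in the same direction, in both segments. From low to high the groups ran WT descending, WT ascending, KO descending and KO ascending, and across segments KO and WT overlapped narrowly. The averaged difference was 0.20 (95% interval 0.03 to 0.36, unadjusted p = 0.0232, limma adjusted p = 0.115). 

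Pdgfb (probe set 17319380), the endothelial ligand of both receptors, had a mean 1.14 above the filter on dim genes. It read 5.06 and 5.27 in KO ascending pools, against 5.23 and 5.31 in WT ascending pools, and 5.07 and 5.15 in KO descending pools, against 5.54 and 5.33 in WT descending pools. The genotypes overlapped in the ascending aorta and not in the descending aorta, where the WT pools were the highest of the 8. The difference was -0.10 in the ascending (limma adjusted p = 0.708) and -0.33 in the descending aorta (95% interval -0.60 to -0.05, limma adjusted p = 0.192). Averaged over the segments it was -0.21 (95% interval -0.41 to -0.02, unadjusted p = 0.0338, limma adjusted p = 0.143).

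Some endothelial markers were lower in KO, and their part in the values of Pdgfb was not tested. Averaged over the segments 6 of 16 were lower (beside 5.22% of all genes), 0 were higher and 10 did not pass, with a median of -0.26. Among the lower was Nos3, the endothelial nitric oxide synthase (-0.53, limma adjusted p = 0.0124). In the ascending aorta 1 of 16 endothelial markers was lower (median -0.22), and in the descending aorta 0 of 16 passed (median -0.33). Their summed signal was 12.35 to 12.36 in KO ascending pools, against 12.56 to 12.64 in WT ascending pools, and 12.64 to 12.68 in KO descending pools, against 12.84 to 12.88 in WT descending pools. Platelets store PDGF, and of 8 tested platelet markers 5 were higher in the KO ascending aorta (median 0.75) and 0 in the KO descending aorta (median -0.08). Their summed signal was 11.33 to 11.44 in KO ascending pools, against 10.68 to 10.75 in WT ascending pools, and 10.80 to 11.05 in KO descending pools, against 10.89 to 11.03 in WT descending pools.

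Pdgfd (probe set 17514460), the PDGFRβ ligand with a CUB domain, did not pass in any comparison of genotype. It read 9.01 and 9.10 in KO ascending pools, against 8.88 and 9.18 in WT ascending pools, and 8.97 and 8.91 in KO descending pools, against 8.73 and 8.79 in WT descending pools. The KO ascending values lay between the WT ascending values, whose spread was the widest of any group for this gene, and the WT descending pools were the lowest. The difference was 0.02 in the ascending (95% interval -0.26 to 0.30, limma adjusted p = 0.952) and 0.18 in the descending aorta (95% interval -0.10 to 0.46, limma adjusted p = 0.487).

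KO and WT arrays did not overlap for 4 of 6 members in the ascending aorta, beside 49.5% of all tested genes, and for 5 of 6 in the descending aorta, beside 51.1%. Across all 8 arrays they did not overlap for 2 of 6 members, Pdgfc and Pdgfra, beside 17% of all tested genes.

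Log ratios of related members on the same array were compared between the genotypes, a measure that a shift of a whole array cannot change. The 3 pairs were chosen with earlier results of these data known, so their separation is not separate support for the differences of single members. The log2 difference Pdgfra minus Pdgfrb averaged -0.31 ± 0.13 in KO arrays and 0.14 ± 0.03 in WT arrays (SD, n = 4 each), with KO between -0.49 and -0.20 and WT between 0.10 and 0.18. The difference Pdgfc minus Pdgfd averaged -1.74 ± 0.24 in KO arrays and -1.03 ± 0.07 in WT arrays (SD, n = 4 each). The difference Pdgfa minus Pdgfb averaged 2.04 ± 0.10 in KO arrays and 1.63 ± 0.19 in WT arrays (SD, n = 4 each). Each n = 4 joins 2 ascending and 2 descending pools, so the SD also holds the difference between segments. In KO, Pdgfc minus Pdgfd was -1.58 and -1.53 in ascending pools, against -2.03 and -1.84 in descending pools. Whether pools of the 2 segments came from the same pups is not stated, so the 4 arrays may not be independent. None of the 3 ratios overlapped between the genotypes, and the share of other gene pairs that do the same was not computed. Since probe sets differ in brightness, only the change of a ratio between arrays can be read. An exact two-sided permutation test of genotype within segments gave p = 0.0556 for each ratio (adjusted p = 0.0556 over the 3), the smallest that its 36 arrangements allow, so this design cannot reach 0.05.

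**Figure D3:**
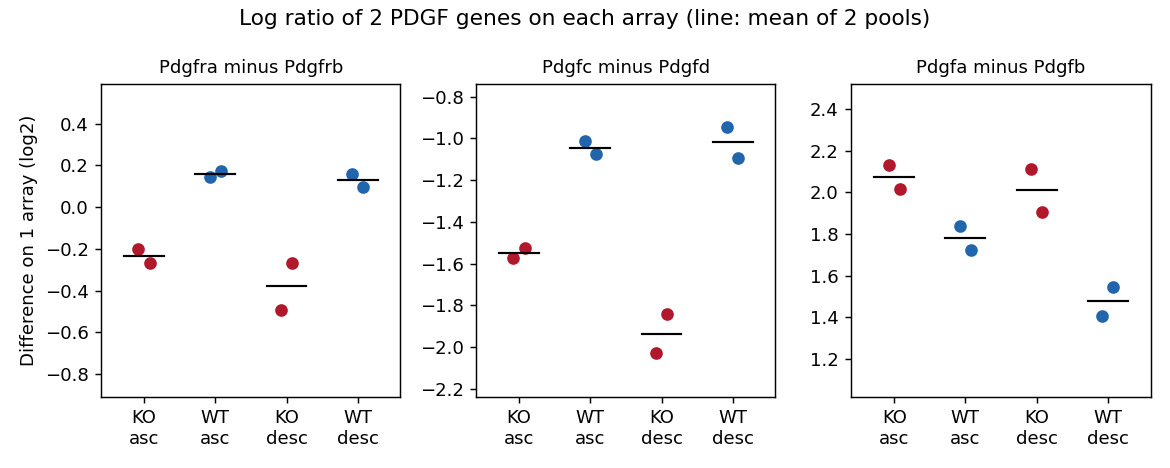
Log2 difference between 2 PDGF genes on the same array, for Pdgfra minus Pdgfrb, Pdgfc minus Pdgfd and Pdgfa minus Pdgfb. Points are the 8 arrays and lines the means of the 2 pools of a group. KO arrays lie below WT arrays in the left and middle panels and above them in the right panel.

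The second question of the design was how the genes differ along the aorta. No member passed between ascending and descending aorta in KO (0 of 6, with 1.48% of all genes called), in WT (0 of 6, with 1.48% called) or averaged over the genotypes (0 of 6, with 4.07% called). The arrays of the segments did not overlap for 4 of 6 members in KO, beside 41% of all genes, for 4 of 6 in WT, beside 42.4%, and for 0 of 6 over both genotypes, beside 7.26%. At an unadjusted p under 0.05, 1, 0 and 1 members passed in these comparisons, beside 2011, 2044 and 2614 of all 16638 genes. Pdgfc had the largest difference of the 6 in KO and on average, with KO ascending pools at 7.43 and 7.57, against KO descending pools at 6.94 and 7.07. Its ascending minus descending difference was 0.50 in KO (95% interval 0.22 to 0.77, limma adjusted p = 0.107), 0.24 in WT (95% interval -0.03 to 0.52, limma adjusted p = 0.471) and 0.37 on average (95% interval 0.17 to 0.56, limma adjusted p = 0.0529). In WT the largest was that of Pdgfd, at 0.27 (95% interval -0.01 to 0.55, limma adjusted p = 0.432). The Pdgfc average passed under 4 of 16 alternatives and is reported as not passing.

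Pdgfd differed by 0.19 on average between ascending and descending aorta (95% interval -0.01 to 0.39, limma adjusted p = 0.348) and Pdgfa by 0.13 (95% interval -0.03 to 0.30, limma adjusted p = 0.449). Pdgfrb differed by -0.11 (limma adjusted p = 0.563), Pdgfb by -0.05 (limma adjusted p = 0.85) and Pdgfra by -0.02 (95% interval -0.22 to 0.18, limma adjusted p = 0.96). For Pdgfra the arrays of the segments overlapped in both genotypes. In the interaction of genotype and segment limma called 0 of 6 members and 0% of all genes, with 0 members and 932 genes at an unadjusted p under 0.05.

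**Figure D4:**
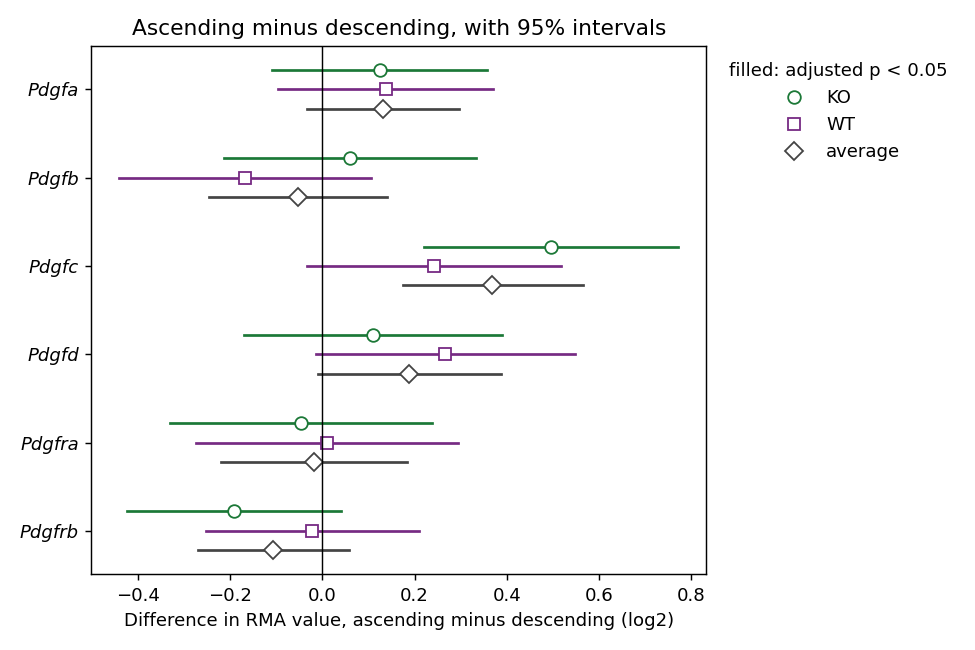
Difference between ascending and descending aorta in RMA value (log2) for each PDGF gene in KO (circles), in WT (squares) and on average (diamonds), with 95% intervals from limma. No symbol is filled, since none passed at an adjusted p under 0.05, and the Pdgfc average lies closest with an adjusted p of 0.0529.

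The genes most like each member were ranked by Pearson correlation over the 8 arrays, which share the 4 groups. They were Wdr45 (r = 0.992), Rnf167 (0.984) and Cpt1a (0.983) for Pdgfra, and Smarca1 (0.991), Sesn3 (0.987) and Tle1 (0.982) for Pdgfc. For Pdgfrb they were Rundc3b (0.979), Slc4a4 (0.970) and Rxra (0.970). For the ligands they were Alpi (0.976), Nt5dc3 (0.975) and Khdrbs3 (0.974) for Pdgfa, Zbtb10 (0.987), Slc31a2 (0.975) and Eid2b (0.967) for Pdgfb, and Nbeal1 (0.95), Krt33b (0.942) and Strbp (0.942) for Pdgfd. Pdgfra had 63 genes with a correlation above 0.95, Pdgfc 42 and Pdgfd 0.

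Around the 6 genes, lists of the wider PDGF pathway were set beside them, using the KO against WT difference averaged over the segments. Over all 8 lists 123 distinct genes were tested, of which 43 passed, 32 higher and 11 lower (35%, beside 11.4% of all genes), with a median of 0.08, against 0.0036 over all genes. Of the same genes 18 were higher and 1 lower in the ascending aorta (15.4%, beside 2.73% of all genes), and 8 were higher and 3 lower in the descending aorta (8.94%, beside 2.28%). The 19 ascending calls fell to 5 and 11 without KO ascending replicate 1 and 2, 6 and 2 without WT ascending replicate 1 and 2, and 12 without either WT descending replicate. The 11 descending calls fell to 1 and 2 without KO descending replicate 1 and 2, 0 without either WT descending replicate, 5 without either KO ascending replicate and 3 without either WT ascending replicate. The averaged count also fell without WT descending replicate 1. Each fit without 1 array leaves 1 array in a group, and it called fewer of all genes in the same comparisons. The falls are therefore not particular to these lists. The list of early response genes held 16 of the higher genes. Many stimuli other than PDGF induce these genes, and they were known to be higher in these data when the list was written. The other lists were also chosen with earlier results known, so the 35% is not a test of the pathway. Lists differed, with 1 of 9 ligand processing genes called and 1 of 19 regulators higher and 1 lower, near the share of all genes. Of 8 VEGF genes, 4 were higher and 1 lower.

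In the list of ligand processing and storage, which holds proteases and also proteins such as Sparc, A2m and Mdk, 1 of 9 was higher and 0 lower. Plau, the urokinase that cleaves PDGF-D, was higher by 0.70 (SE 0.14, limma adjusted p = 0.0177), although not without WT descending replicate 2 (adjusted p = 0.0571). Plat, the tissue plasminogen activator that cleaves PDGF-C, differed by -0.14 (limma adjusted p = 0.23). Of 10 co-receptors and partners, 2 were higher and 2 lower. Itgb3, the β3 integrin subunit that pairs with PDGFRβ, was higher by 0.58 (SE 0.08, limma adjusted p = 0.00445), and Cspg4 was the other. Cav1, the coat protein of caveolae (-0.34, adjusted p = 0.0206), and Slc9a3r2, a scaffold of the PDGF receptor (-0.36, adjusted p = 0.0343), were lower, and these calls were lost without 6 and 7 of the 8 arrays, each left out in turn, with adjusted p up to 0.0787 and 0.115.

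Among receptor adaptors and kinases, 3 of 30 were higher and 3 lower. Grb10, an adaptor that dampens growth factor receptors, was higher by 0.44 (SE 0.07, limma adjusted p = 0.0103). The 3 lower genes encode proteins that bind activated PDGF receptors, namely Fyn, a Src-family kinase (-0.46, adjusted p = 0.0276), Pik3r1, the regulatory subunit of PI3-kinase (-0.29, adjusted p = 0.0309), and Plcg1, a phospholipase (-0.35, adjusted p = 0.0387). These calls did not hold when single arrays were left out. The Fyn call was lost without any array other than KO descending replicate 1 and WT ascending replicate 2, the Plcg1 call without any array other than KO ascending replicate 2, and the Pik3r1 call without any of the 8, with adjusted p up to 0.0977, 0.112 and 0.0995.

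Of 18 phosphatases and negative regulators, 4 were higher and 2 lower. The MAP kinase phosphatases Dusp1 (0.53, adjusted p = 0.00633) and Dusp5 (0.66, adjusted p = 0.00989) were higher. So were Spry1 (0.56, limma adjusted p = 0.0118) and the phosphatase Ptpn1 (0.32, limma adjusted p = 0.0476), named after their values were seen. The phosphatases Ptprk (-0.67, adjusted p = 0.00659) and Acp1, which acts on the PDGF receptor (-0.42, adjusted p = 0.0092), were lower. Of 24 early genes that PDGF can induce, 16 were higher and 1 lower, with a median of 0.72, including Ptgs2, which encodes cyclooxygenase 2 (2.05, adjusted p = 0.000319), the transcription factor gene Egr1 (1.60, adjusted p = 0.00236) and Ier3 (1.09, adjusted p = 0.000603), while Fos differed by 1.05 (limma adjusted p = 0.0538). Neutrophil markers moved with this list, with 9 of 13 tested higher, and their part in it was not tested.

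Of 8 vascular endothelial growth factor (VEGF) ligands and receptors, 4 were higher and 1 lower. Vegfd was higher by 0.63 (SE 0.08, limma adjusted p = 0.00396) and the receptor Flt1 by 0.76 (SE 0.12, limma adjusted p = 0.00707), while the receptor Kdr was lower (-0.58, SE 0.08, limma adjusted p = 0.0045). Vegfa was higher by 0.33 (adjusted p = 0.0252), a call lost without 7 of the 8 arrays in turn (adjusted p up to 0.0914). Among the other class III receptor kinases and their ligands 1 of 5 was higher and 1 lower. Csf1r, the macrophage receptor, was higher by 0.30 (adjusted p = 0.0452), a call also lost without 7 of the 8 arrays in turn (adjusted p up to 0.127). Kitl, the ligand of KIT, was lower (-0.88, SE 0.15, limma adjusted p = 0.00956), and its receptor Kit differed by -0.15 (limma adjusted p = 0.39). Among 19 transcription factors and other regulators linked to PDGF genes, 1 was higher and 1 lower. They were the forkhead factor Foxc2 (0.65, adjusted p = 0.00804) and Gli1, a target and effector of hedgehog signalling (-0.48, adjusted p = 0.0158), whose call was lost without KO descending replicate 1 (adjusted p = 0.0525) or WT descending replicate 1 (0.0555).

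**Figure D5:**
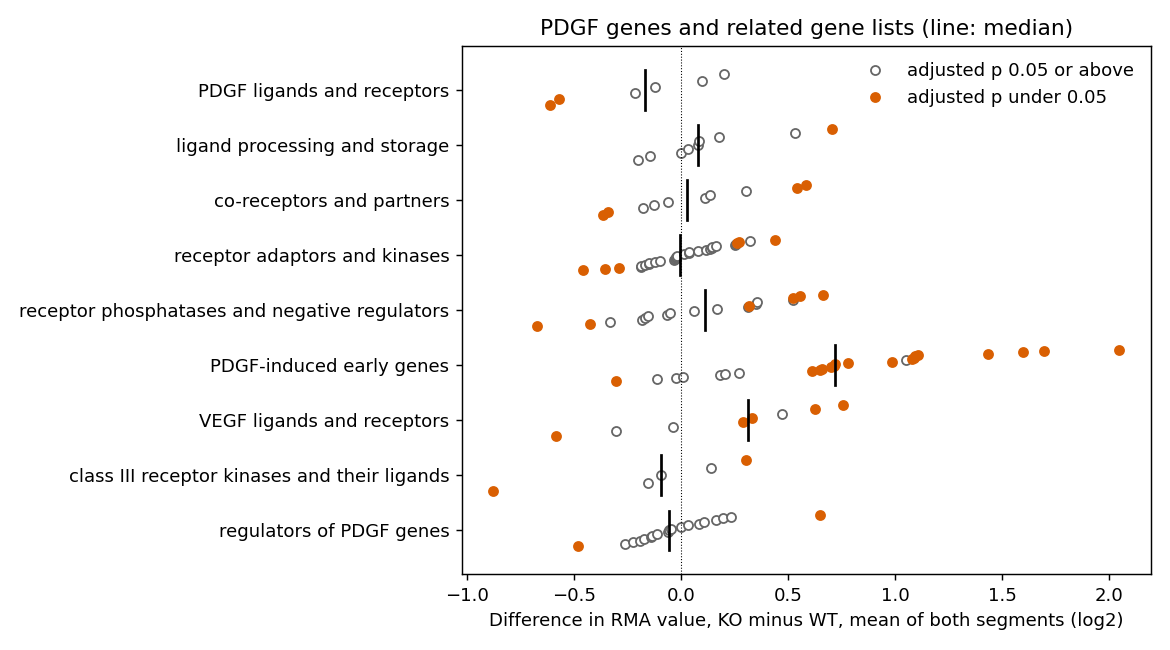
Difference between KO and WT in RMA value (log2), averaged over both segments, for the 6 PDGF genes and 8 related lists. Each point is a gene, filled where the limma adjusted p was under 0.05, and black lines are medians. In the top row Pdgfc and Pdgfra are the filled points at -0.61 and -0.57, and the early gene list has the highest median, at 0.72.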

How the data were processed

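Values were deposited by the authors on the log2 scale, made with RMA in Affymetrix Expression Console per the submitters' processing notes, with no versions given there. Per the labels' protocols, RNA was amplified from 50 ng and biotin labelled with NuGEN kits. The platform table gave a single symbol for 23525 of 41345 probe sets, several for 1810 and none for 16010. For each of 22184 genes the brightest probe set was kept, and genes below the 25th percentile of means (4.11) were left out, which left 16638.

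limma 3.58.1 (R 4.3.3) was fitted over all 8 arrays with 1 coefficient per group and eBayes defaults (4 residual and 4.51 prior degrees of freedom). Adjusted p-values are Benjamini-Hochberg values over all genes tested, and a gene passed under 0.05. The script was tested on simulated data. The 6 members, the 8 pathway and 17 marker lists and the log ratios were chosen with earlier results of these data known. Of 333 list entries 305 matched and 300 were tested, and the others were not analysed here. Summed signals are log2 sums of linear values over matched markers. Named list genes came from the 4 of smallest p in each pathway list, 2 in each marker list, and 1 that did not pass. Genes most alike skip predicted genes and small RNAs. Arrays with like replicate numbers were not treated as pairs, because their deviations from group means correlated at -0.095 to 0.126 across groups. Alternatives covered the filter, prior, scaling, probe set choice, replicate block, arrays fitted and each array left out in turn. Figures used matplotlib 3.10.9 in python 3.11.15.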

Additional observations from a re-analysis of the deposited data

Results flagged for a closer look

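In 4 of 112 list genes examined, every KO array differed from every WT array in opposite directions in the ascending and descending aorta, beside 3.82% of all genes. The 112 were not all of the 300 list entries tested, and named list genes were picked by smallest p. The shares are therefore not of like sets. The count was near the share of all genes and is no result about the lists. The KO minus WT difference, ascending less descending, was -0.36 for St14, 0.65 for Tcf21, 0.73 for Treml1 and 0.48 for Upk3b. None passed limma's interaction test (adjusted p = 0.854, 0.723, 0.647 and 0.876). Tcf21, a fibroblast transcription factor, was lower in the KO descending aorta (-0.55, limma adjusted p = 0.0465) and differed by 0.10 in the ascending aorta (limma adjusted p = 0.69). Treml1, a platelet receptor, was higher in the KO ascending aorta (0.62, limma adjusted p = 0.0183) and differed by -0.10 in the descending aorta (limma adjusted p = 0.615). No PDGF ligand or receptor showed this pattern.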

How the results depend on the processing

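Of 689 values of the 6 members under the alternatives, 644 kept their direction and their side of the threshold, 16 lost a call, 9 gained one and 20 changed sign. None of the values that changed sign passed. For each the cause was not tested. The averaged falls of Pdgfra and Pdgfc kept their calls under all 16 alternatives. In the ascending aorta the count of members called, 1 in the fit above, was 0 without the filter, with cyclic loess, with all probe sets tested separately, with the replicate block and with only the arrays compared, and 2 with a 50th percentile filter and with the trended robust prior. Leaving out single arrays gave 0 to 1. In the descending aorta it was 2 with the 50th percentile filter and with the trended robust prior, 0 with only the arrays compared, and 0 to 1 without single arrays. Between segments it was 1 in KO with the trended robust prior. On average it was 1 with that prior, the 50th percentile filter, cyclic loess or arrays shifted to 1 median. Over all genes, that prior called 430 between segments in KO, against 247 in the fit above. On average 677 were called above, and 951, 706, 697 and 663 in the settings named. In the ascending aorta 455 of all genes were called above, 303 without the filter, 470 with cyclic loess and 389 with probe sets separate. They were 384 with the replicate block, 100 with only the arrays compared, 756 with the 50th percentile filter and 1014 with that prior. In the descending aorta 380 were called above, and 717, 919 and 105 with that filter, that prior and only the arrays compared. Pdgfb was left out by the 50th percentile filter. Each member had 1 probe set, so the choice of probe set had 0 others to test.

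Of pathway genes, 19 were called in the ascending aorta, and 29 with the 50th percentile filter and 30 with the trended robust prior. Over all genes these counts were 455, 756 and 1014. The 11 pathway genes called in the descending aorta became 3 without the filter and 18 with the 50th percentile filter. They became 21 with the trended robust prior and 4 with the replicate block. Over all genes the 380 called there became 155, 717, 919 and 200 in the same settings. Between segments the trended robust prior called 430 of all genes in KO (247 otherwise), 444 in WT (247) and 951 on average (677). Of pathway genes it called 12 in KO (6 otherwise), 10 in WT (5) and 24 on average (13). Without single arrays the counts were 2 to 19 in the ascending aorta, 0 to 5 in the descending aorta, 28 to 34 averaged, 3 to 7 and 2 to 6 between segments in KO and WT, 8 to 16 averaged over genotypes, and 0 to 1 in the interaction. Fits without 1 array also called fewer of all genes in each comparison but the interaction. The replicate block removed the ascending call of Pdgfra (limma adjusted p = 0.0598) and left 2 members called on average.

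Sign changes without single arrays came in values that ranged, for KO against WT, from -0.20 to 0.003 (Pdgfb, ascending), -0.13 to 0.17 (Pdgfd, ascending) and -0.076 to 0.0031 (Pdgfrb, descending). Between segments they ranged from -0.043 to 0.16 (Pdgfb, KO), -0.20 to 0.11 (Pdgfra, KO), -0.058 to 0.078 (Pdgfra, WT), -0.058 to 0.015 (Pdgfrb, WT) and -0.094 to 0.058 (Pdgfra, averaged). In the interaction they ranged from -0.077 to 0.051 (Pdgfa) and -0.21 to 0.096 (Pdgfra). Shifting arrays to 1 median gave -0.011 for Pdgfd in the ascending KO against WT comparison and 0.0098 for Pdgfrb between WT segments, and cyclic loess gave 0.013 for Pdgfa in the interaction.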
